A study of Mus musculus with 8 samples.

Results

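The 10 genes described here take part in the feedback on inflammatory signalling, most of them as brakes, and the data are the called binding sites of the transcription factor PU.1 in and around them. The members were Tnfaip3, Nfkbia, Nfkbie, Nfkbiz, Socs1, Socs3, Stat3, Dusp1, Zc3h12a and Zfp36, out of 21887 protein-coding genes. A site belonged to a gene when its summit lay in the gene body or within 10 kb of either end, which took in 314 of 365360 deposited summits over 7 libraries. The genes were chosen with these lists known. Zc3h12a was selected on its peak scores, a high one at Day 12 and no summit at Day 0. The values below are therefore a description and carry no test.

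The sites come from ChIP-seq, in which DNA bound by PU.1 is pulled down with an antibody and sequenced. The cells were AML246, a line of mouse acute myeloid leukaemia grown with IL-3. Doxycycline (Dox, 0.1 ug/mL) restored PU.1 over a 24 day course and was taken away on day 12. The labels give no genotype for the line. The restoration libraries were Day 0 (untreated) and Days 4, 8 and 12 of Dox, each from all viable sorted cells. The knockdown libraries were titled Day 12- 4, Day 12- 8 and Day 12- 12. Their treatment labels read otherwise. Day 12- 4 was labelled 12 days of Dox with a Cd11b-high sort, Day 12- 8 was labelled 4 days off Dox, and Day 12- 12 was labelled 8 days off Dox. The titles are used as names. An 8th sample, from 12 days after Dox was withdrawn, is not analysed here.

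With 1 library for each time point, differences between libraries have no replicate error to be set against. The lists held from 8043 sites (Day 0) to 148415 (Day 12- 12), and read depth is unknown. A score is the authors' own −log10 q-value of a peak within its list, so it ranks a peak among the others of that list, and a difference in score between lists is no measured change. A site without a call may still be bound. The lists measure no expression, so the cell type could be checked only through sites. Of 10 myeloid identity genes, 4 had a site at Day 0, against 36.8% of all protein-coding genes. All 10 had a site at Day 12, against 77.1%. The Day 0 count is near the share of all genes, so it tells nothing of cell type. Spi1, the gene of PU.1 itself, scored 53.4 at Day 0 and 674 at Day 12.

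Inflammatory signals such as bacterial products and cytokines reach the nucleus through NF-kB, STAT factors and MAP kinases. The same signals switch on genes whose products end the response: inhibitors that hold NF-kB in the cytoplasm, enzymes that take ubiquitin chains apart, SOCS proteins that block cytokine receptors, a phosphatase of MAP kinases, and proteins that destroy inflammatory mRNA. PU.1 is an ETS-family factor of myeloid cells and B cells that binds purine-rich DNA with a GGAA core. In macrophages it marks many of the enhancers at which inflammatory signals act.

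At Day 0, 7 of the 10 genes had a called site, against 36.8% of all protein-coding genes. Zc3h12a, Zfp36 and Stat3 had none. All 10 had a site at Days 4, 8 and 12, against 69.8, 61.7 and 77.1% of all genes. Inside the gene bodies alone, the Day 4 count was 5, against 48.7%. In the library titled Day 12- 4 the count was 7, against 34.8%, with no call at Nfkbiz, Socs1 or Stat3. It was 10 in Day 12- 8 and in Day 12- 12, against 61.8 and 78.9%. The 2 shortest lists, Day 0 and Day 12- 4, gave the 2 counts of 7, and counts from lists of equal length are given further on. A site at Day 12 with none at Day 0 was found for 3 members, against 42.1% of all genes. Since Zc3h12a was selected on that contrast, nothing is read from this count. A site in every library was found for Tnfaip3, Nfkbia, Nfkbie, Socs3 and Dusp1, which is 5 of 10, against 17.5%.

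**Figure D1:**
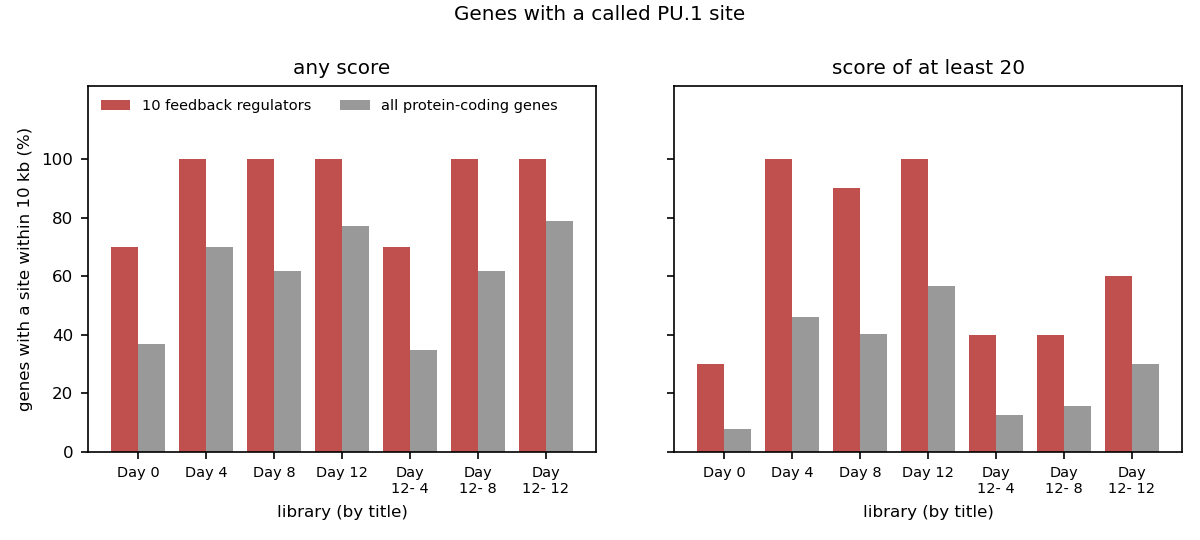
Percentage of genes with a called site in the body or within 10 kb (vertical axis, from 0) in each library (horizontal axis), for any score on the left and for a score of at least 20 on the right. Red bars are the 10 feedback regulators and grey bars all 21887 protein-coding genes. The red bars stand above the grey ones in all 7 libraries, at 7 of 10 against 36.8% at Day 0 and 10 of 10 against 77.1% at Day 12.

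With a score of at least 20 the members' counts were 3, 10, 9 and 10 at Days 0, 4, 8 and 12, against 7.80, 45.9, 40.1 and 56.8% of all genes. They were 4, 4 and 6 in Day 12- 4, Day 12- 8 and Day 12- 12, against 12.7, 15.6 and 30.1%. The 3 genes past that score at Day 0 were Tnfaip3, Nfkbia and Nfkbie, and the Nfkbie call lay inside the neighbouring gene Slc35b2. With a gene lacking a call counted as 0, the median highest score of the members was 10.1 at Day 0 and 263 at Day 12, against 0 and 33.4 over all genes. In Day 12- 4, Day 12- 8 and Day 12- 12 the members' median was 13.7, 16.8 and 35.2, against 0, 6.08 and 10.7.

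The members are short genes, with a median length of 5.86 kb against 17.2 kb for all protein-coding genes, so their windows are mostly flanking sequence. Site density is therefore given as well. At Day 0 the member windows held 3.37 sites per 100 kb, against 0.570 over the windows of all genes. At Day 12 the densities were 22.1 and 5.35. In the longest list, Day 12- 12, they were 26.0 and 8.72. How much of this follows from the share of window close to gene starts was not tested.

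**Figure D2:**
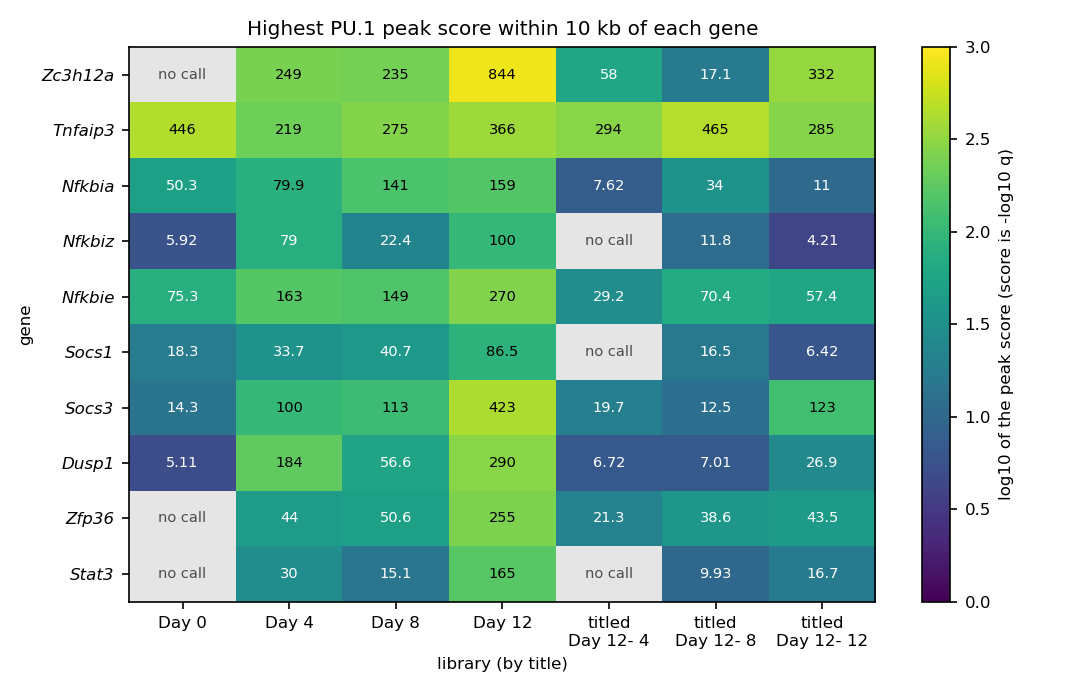
Highest peak score (printed in each cell, and as colour on a log10 scale) in the window of each gene (rows) in each library (columns). Grey cells had no call. Tnfaip3 lies between 219 and 465 in all 7 libraries, while Zc3h12a goes from no call at Day 0 to 844 at Day 12.

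Tnfaip3 encodes a ubiquitin-editing enzyme that switches off signalling from TNF and Toll-like receptors to NF-kB. It stood apart from the other members in having a high-scoring site before Dox. The site lay at chromosome 10, 19015369 to 19015372 (mm10), inside the gene and 38 to 41 bp past its annotated start. Its scores at Days 0, 4, 8 and 12 were 446, 219, 275 and 366. In Day 12- 4, Day 12- 8 and Day 12- 12 they were 294, 465 and 285. It was the 3rd highest of 8043 sites at Day 0 and the 9th of 21377 in Day 12- 8, but the 1221st of 86271 at Day 12. No other Tnfaip3 site scored above 15.4 in any library.

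The RefSeq sequence (GRCm38.p6, the coordinates of mm10, minus strand, 5′ to 3′) shows what lies at and before this summit. The first line covers 150 bases up to the start (chr10:19015411-19015560). In it, capitals mark AP-1-type letters (TGANTCA) and the kB-type pattern that was searched, but not near forms of that pattern. The second covers 30 bases around the summits (chr10:19015361-19015390), with the span of the 7 summits in capitals. It also holds a bare GGAA core, 33 to 36 bp past the start and left in small letters. That core is in 96.0% of all promoters.
Tnfaip3 before the start: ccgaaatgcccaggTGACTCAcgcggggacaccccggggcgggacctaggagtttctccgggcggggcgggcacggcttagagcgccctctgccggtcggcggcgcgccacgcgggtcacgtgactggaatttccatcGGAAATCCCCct
Tnfaip3 at the summits: aaaggcaaaaaagggaacTGCCcagtctgt

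The Tnfaip3 summits of all 7 libraries fell within 3 bp. Over the 936 merged sites called in all 7 libraries the median span was 72 bp, and only 3 sites, at Tnfaip3, Myh9 and Edem1, spanned 3 bp or less. Tnfaip3 also belonged to the 11 of these sites (1.18%) whose score was higher at Day 0 than at Day 12. Of the other 10, some lay in Plekhg1, Slc22a15, Tbc1d1 and Grk5, and others were nearest to Ptma and Rpusd4. The rest lay at 3 positions over 1 Mb from any protein-coding gene (nearest Lrrc4c) and on an unplaced scaffold. In Slc22a15 the site was the highest of the Day 0 list at 490.3 and scored 414 at Day 12. In Plekhg1 the scores were 448 and 437. These comparison sites were picked after their values were seen. No control library was used here, so the level of these positions without PU.1 antibody is not known.

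Nfkbia encodes IkB-alpha, the inhibitor that keeps NF-kB in the cytoplasm and is rebuilt as an NF-kB target. Its main site (chromosome 12, 55492021 to 55492084) lay inside the gene, 0.604 kb past the start at Day 12. It scored 50.3 at Day 0, had no call at Day 4, and scored 141 at Day 8 and 159 at Day 12. In title order the knockdown libraries gave 7.62, 34.0 and 11.0. At Day 4 the highest site was instead 0.589 kb beyond the 3′ end, at 79.9. That position scored 50.9 at Day 8 and had no call in the other libraries. The promoter window of Nfkbia held no summit in any restoration library, although it carries kB-type letters 29 to 20 bp before the start.

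Nfkbie encodes IkB-epsilon, another cytoplasmic inhibitor of NF-kB. Its window held a site called in all 7 libraries (chromosome 17, 45563914 to 45564031), with scores of 75.3, 22.8, 149 and 270.5 at Days 0, 4, 8 and 12. The same site scored 29.2, 70.4 and 57.4 in the knockdown libraries in title order. It lies 0.782 kb past the 3′ end of Nfkbie and inside the neighbouring gene Slc35b2, so it cannot be assigned to Nfkbie. Inside Nfkbie itself, 1.21 kb past the start, a site scored 163 at Day 4 and 71.1 at Day 8, then 10.6 in Day 12- 4 and 14.7 in Day 12- 12. It had no call at Day 0, Day 12 or in Day 12- 8. Just before the Nfkbie start, a promoter site scored 13.4 at Day 4 and 70.3 at Day 12 and was called in no other library.

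Nfkbiz encodes IkB-zeta, a nuclear member of the IkB family that helps switch on secondary response genes such as Il6. Its highest Day 12 site (chromosome 16, 55821821 to 55821926) lay inside the gene. It scored 5.92 at Day 0, 22.4 at Day 8, 100.1 at Day 12 and 11.8 in Day 12- 8, and Day 4 and the other 2 knockdown libraries lacked it. At Day 4 another site inside the gene (55811937 to 55812023) led with 79.0, and scored 22.2 at Day 8 and 9.48 at Day 12. Nfkbiz and Socs1 had the most alike profiles of highest scores among the members.

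Socs1 encodes a protein that blocks JAK kinases below interferon and other cytokine receptors. A site inside the gene, 0.463 kb past the start (chromosome 16, 10785060 to 10785089), scored 5.07 at Day 0, 40.7 at Day 8, 86.5 at Day 12 and 10.8 in Day 12- 8. It had no call at Day 4, in Day 12- 4 or in Day 12- 12. The highest Day 0 site, at 18.3, lay elsewhere in the gene (10784681) and was called in no other library. In Day 12- 8 and Day 12- 12 the highest sites in the window, at 16.5 and 6.42, lay inside the neighbouring protamine-cluster genes Tnp2 and Prm2. At 86.5, the highest Day 12 score of Socs1 was the lowest among the members.

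Socs3 encodes the SOCS protein that restrains signalling from gp130 receptors (IL-6) and from the G-CSF receptor. Its higher-scoring sites flanked the gene on both sides and were not at the start. The highest at Day 12 lay 5.94 kb beyond the 5′ end of the gene (chromosome 11, 117976258 to 117976297), with no call at Day 0 and scores of 96.7, 108 and 423 at Days 4, 8 and 12. It scored 19.7, 6.34 and 123 in the knockdown libraries in title order. On the 3′ side, 7.71 kb from the gene (117958332 to 117958376), a site scored 100.002, 113 and 350.4 at Days 4, 8 and 12, then 5.02 in Day 12- 4 and 55.9 in Day 12- 12. A second site on each side, at 117974860 to 117974997 and 117960008 to 117960158, scored 188 and 183 at Day 12. At Day 0 the only sites were inside the Socs3 annotation, at 14.3 and 9.61. The first of them lay 67 bp before the annotated start.

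Stat3 encodes the transcription factor that IL-6, IL-10 and G-CSF receptors activate, and Socs3 is among its known targets. It had no Day 0 call. At Day 12 its highest site lay 158 bp before the start (chromosome 11, 100939698 to 100939718), scored 165, and had also been called at Day 4, at 14.5. Merged within 100 bp, that site was called in no other library. A Day 12- 12 summit 57 bp before the start (100939597), with a score of 16.7, lay just beyond that limit. It counts as a site of its own. The remaining sites in the Stat3 window were many and low. Those lying 2.94 kb or more beyond the 3′ end are nearest to Stat5a. The 72.8 kb window held 13 sites at Day 12, of which 2 reached a score of 20, and 21 in Day 12- 12, of which 0 did. In Day 12- 4 it held none.

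Dusp1 encodes a nuclear phosphatase that inactivates p38 and JNK and is induced within minutes of stimulation. Its highest sites lay 7.74 to 7.92 kb beyond the 3′ end. At Day 12 the summit was at chromosome 17, 26497669, with a score of 290.5. At Days 4 and 8 it was at 26497835 and 26497838, with scores of 184 and 56.6. In Day 12- 4 and Day 12- 12 it was at 26497851 and 26497798, with scores of 6.72 and 26.9. The Day 12 summit lay more than 100 bp from the others, so merging within 100 bp counts it as a site of its own. At Day 0 and in Day 12- 8 the only Dusp1 call was inside the gene, at 5.11 and 7.01.

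Zc3h12a encodes Regnase-1, an RNase that cuts inflammatory mRNAs such as Il6 in their stem-loops. Its window held no summit at Day 0 and then 7, 9 and 11 at Days 4, 8 and 12. The knockdown libraries held 6, 3 and 14 in title order. The gene is read from the minus strand, so its highest-scoring site (chromosome 4, 125118150 to 125118181) lies 0.256 kb past its 3′ end, 9.72 kb from its start. That site scored 249, 235 and 844 at Days 4, 8 and 12. It ranked 11th of 86271 at Day 12. It scored 58.0 in Day 12- 4 and 332 in Day 12- 12, where it ranked 150th, and had no call in Day 12- 8.

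Zc3h12a carried more than this single site. A second one on the 3′ side, 1.74 kb from the gene (125116679 to 125116746), scored 218, 207 and 370.4 at Days 4, 8 and 12, with 25.9 in Day 12- 4 and 132 in Day 12- 12. Inside the gene, 3.25 kb past the start (125124605 to 125124631), a site scored 49.2, 62.5 and 319 at Days 4, 8 and 12, then 4.48 in Day 12- 4 and 89.1 in Day 12- 12. A further site, 0.392 kb past the start (125127403 to 125127489), scored 11.8, 27.7 and 191 at Days 4, 8 and 12 and 13.4 in Day 12- 12. None of these was called at Day 0 or in Day 12- 8. In Day 12- 8 the highest Zc3h12a summit lay 12 bp past the start, at 17.1. Day 8 and Day 12- 12 had summits 33 and 106 bp before the start, at 12.3 and 7.77.

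Zfp36 encodes tristetraprolin, which binds AU-rich elements and speeds the decay of Tnf and other cytokine mRNAs. It too lacked a Day 0 call. Unlike Zc3h12a, its higher Day 12 sites ran along the 5′ side. The promoter site, 144 bp before the start at Day 12 (chromosome 7, 28379320 to 28379391), was called in every library but Day 0. It scored 22.5, 34.3 and 203 at Days 4, 8 and 12 and 21.3, 18.0 and 21.6 in the knockdown libraries in title order. Sites 1.94 and 2.89 kb before the start scored 254 and 255 at Day 12. Their Day 4 and Day 8 scores ran from 30.1 to 44.0. A 4th site, 6.82 kb before the start, scored 187 at Day 12, but its nearest protein-coding gene is Med29.

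**Figure D3:**
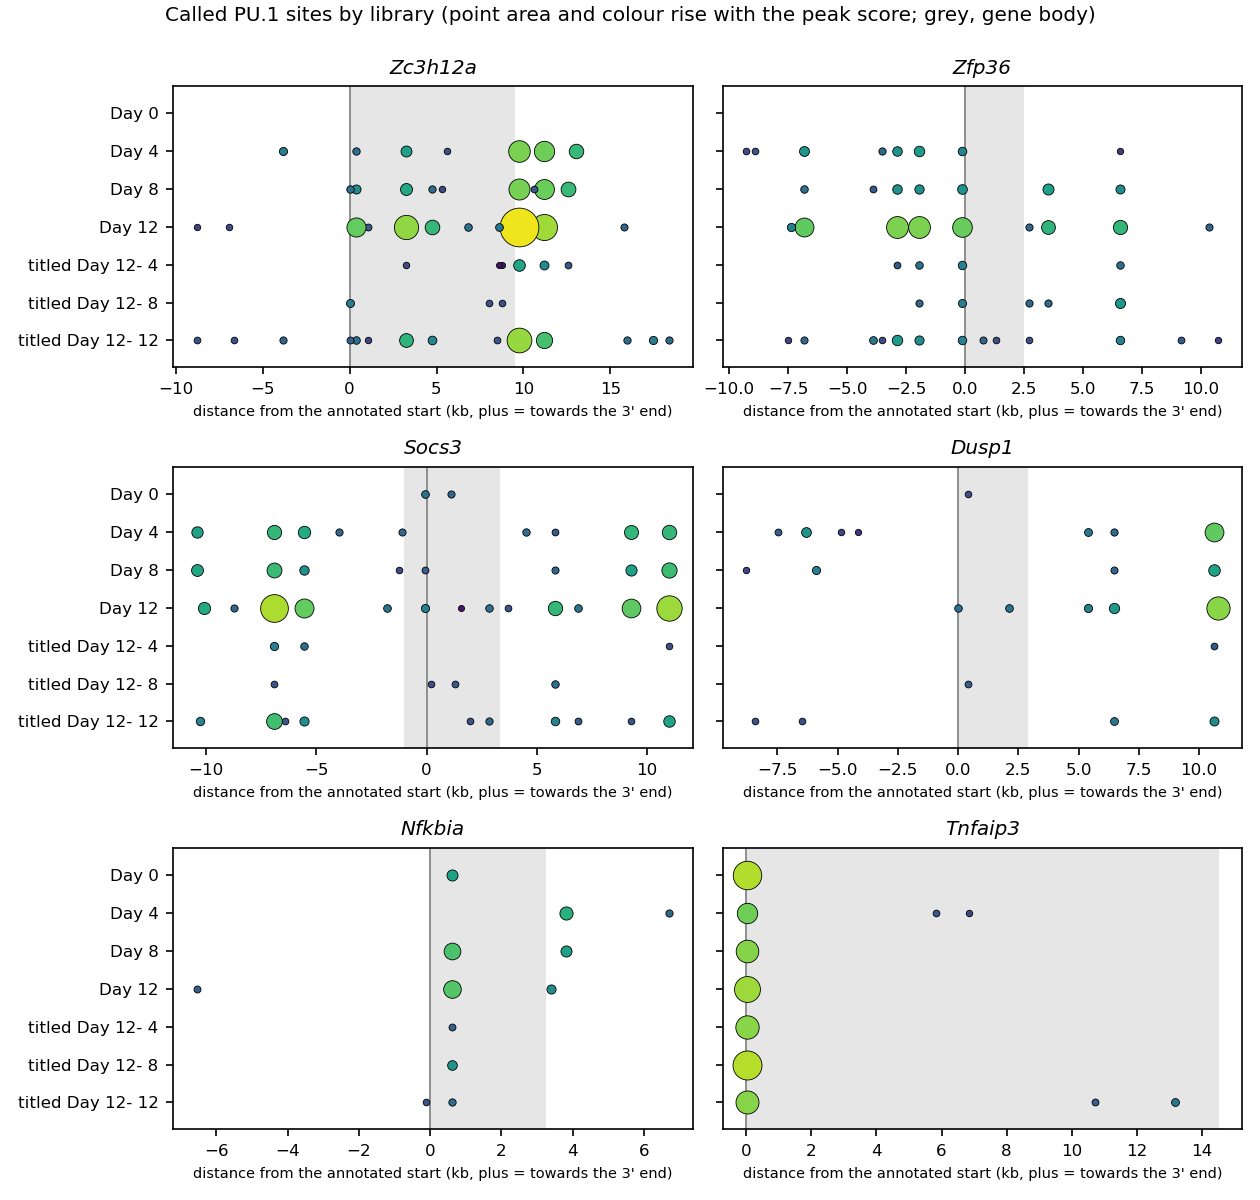
Called sites of 6 members by library (rows) against the distance from the annotated start (horizontal axis, kb, plus towards the 3′ end). Each point is a merged site placed at its highest summit. Point area and colour rise with the score, and grey marks the gene body. Zc3h12a has its highest points past the 3′ end, Zfp36 on the 5′ side, Socs3 on both sides and Tnfaip3 at the start in all 7 libraries.

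Promoter sequences are shown for the other members with a promoter summit at Day 12 of a score above 70. They are RefSeq sequences of GRCm38.p6, 5′ to 3′ on the gene's strand. Capitals mark the bases between the outermost promoter summits given above, which for Stat3 are those of Days 4 and 12. For Nfkbie, AP-1-type letters (TGANTCA) are also in capitals, and for Stat3 the ETS-type letters GGAAGT. Zfp36 is chr7:28379279-28379428 (minus strand), Stat3 is chr11:100939541-100939740 (minus strand) and Nfkbie is chr17:45555530-45555649 (plus strand).
Zfp36: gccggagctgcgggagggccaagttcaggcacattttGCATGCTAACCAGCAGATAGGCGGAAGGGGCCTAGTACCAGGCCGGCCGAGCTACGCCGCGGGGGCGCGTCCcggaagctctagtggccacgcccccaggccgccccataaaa
Stat3: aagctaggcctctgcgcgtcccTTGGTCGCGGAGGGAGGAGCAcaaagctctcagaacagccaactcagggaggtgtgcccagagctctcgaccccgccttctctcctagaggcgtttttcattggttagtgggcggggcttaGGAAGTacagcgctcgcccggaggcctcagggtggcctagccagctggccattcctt
Nfkbie: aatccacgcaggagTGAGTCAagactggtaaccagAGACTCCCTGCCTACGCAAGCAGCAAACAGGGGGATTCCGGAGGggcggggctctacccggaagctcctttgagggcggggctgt

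Promoter windows ran from 250 bases before to 50 bases after a start. The table held 10 for the members (2 for Tnfaip3), and 9 genes matched. At Day 12, 6 of the 10 held a summit, against 21.1% of 32851 promoters, and at Day 0 it was 2, against 5.63%. Days 4 and 8 each gave 4, against 10.3 and 12.2%, and Day 12- 4, Day 12- 8 and Day 12- 12 gave 2, 3 and 5, against 5.70, 12.4 and 15.0%. A summit in all 7 libraries was found at Tnfaip3 alone among the members, and at 1.32% of all promoters. The Socs1 promoter held none in any library.

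Letters were searched on both strands. The PU.1-type GAGGAAGT was in 0 of the 10 member promoters and in 3.20% of all promoters. The shorter GGAAGT, which lies within it, was in 2 (Nfkbia and Stat3) and in 23.8% of all. In Stat3 it begins 57 bp before the start, at the Day 12- 12 summit (score 16.7) and away from the Day 12 summit. Tnfaip3 and Nfkbia held the kB-type letters searched, against 1.63% of all, and Dusp1 held the cAMP-response TGACGTCA, against 1.79%. The kB-type search used a strict fixed pattern, and looser forms were not counted. Near forms of it can be read in the printed Nfkbie summit span and just before the marked Tnfaip3 letters. The other member promoters therefore cannot be said to lack kB-type sites. AP-1-type TGANTCA was in Tnfaip3 and Nfkbie, against 7.81%, and STAT-type TTCNNNGAA in Socs3 and Zfp36, against 8.30%. The bare core GGAA, searched after the sequences were seen, was in all 10 and in 96.0% of all promoters. Most high-scoring Day 12 sites lay outside these windows, where no sequence was read.

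Merging summits within 100 bp gave 168 sites in the 10 windows and 246675 in the genome. In the windows 105 were called in 1 library only, 40 of them in Day 12- 12, against 73.0% of sites in the genome. At Day 12, 72 of the 168 were called, against 35.0%. Of these 72, 65 had no Day 0 call, against 96.3% of Day 12 sites in the genome. Only 2 sites, at Tnfaip3 and at Nfkbie (inside Slc35b2), were called in all 7 libraries, against 0.379% of sites in the genome. A Day 12 score of at least 100 was reached by 19 of the 72, against 6794 of 86271 Day 12 sites in the genome. That limit was set after the values were seen. Sites of Zc3h12a, which was selected on its Day 12 score, are among the 19, so nothing is read from this count. Of the 19, 6 were inside a member, 7 on the 5′ side and 6 on the 3′ side. Among the 18 with a known start, 5 lay within 1 kb of it. The shares of genome sites with these placements are not given, so the placements are a description only.

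Of those 19 sites, 15 had no Day 0 call, against 75.4% of the sites in the genome past the same score. The counts that follow describe these 15 and rest on that choice, so nothing is read from them about the members. Days 4 and 8 each called 13 of the 15, against 88.3 and 92.0% of such sites in the genome. Among the knockdown libraries, Day 12- 4 called 9, Day 12- 8 called 3 and Day 12- 12 called 13. The shares in the genome were 53.9, 31.2 and 93.2%, in the same order. The 3 called in Day 12- 8 were the Socs3 site on the 5′ side and the Zfp36 sites at 0.144 and 1.94 kb before the start. Those not called in Day 12- 12 were the highest Day 12 sites of Stat3 and Dusp1. Near each of them a Day 12- 12 summit, at 16.7 and 26.9, lay outside the 100 bp merging limit. Over all scores, 30 of the 72 Day 12 sites were called in no library titled knockdown, against 48.0% in the genome. These Stat3 and Dusp1 sites are among the 30, so that count also depends on the merging limit.

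**Figure D4:**
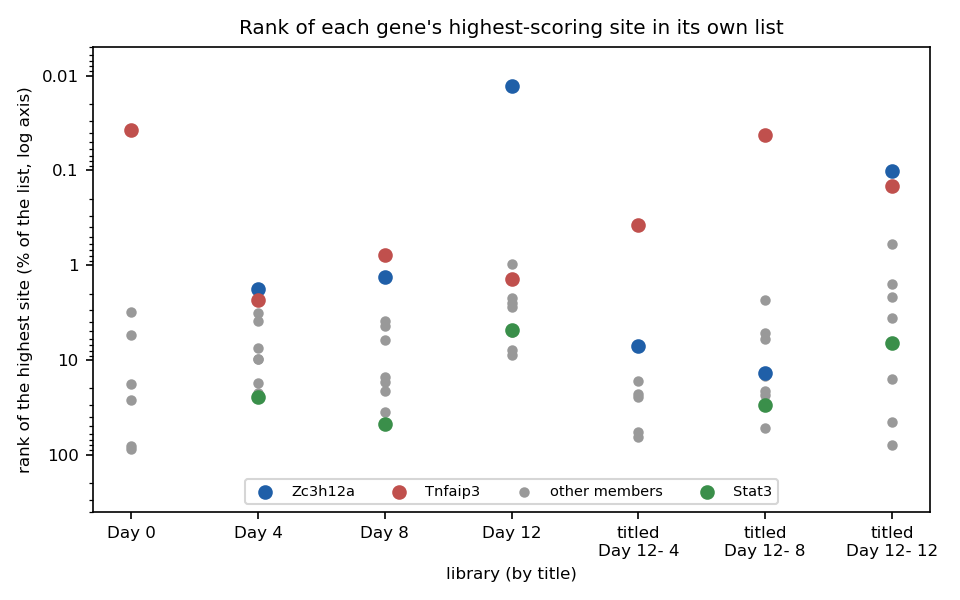
Rank of the highest-scoring site of each gene as a percentage of its own list (vertical axis, log scale, best rank at the top) in each library (horizontal axis). Tnfaip3 is red, Zc3h12a blue, Stat3 green and the other members grey. Tnfaip3 is the best-ranked member at Day 0 (0.0373%) and in Day 12- 8 (0.0421%), and Zc3h12a at Day 12 (0.0128%).

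Lists differ in length, so the counts were repeated on the 8043 top-scoring sites of each. At Days 4, 8 and 12, 7, 8 and 10 members then had a site, against 25.5, 29.2 and 35.2% of all genes. In Day 12- 4, Day 12- 8 and Day 12- 12 the counts were 7, 9 and 6, against 31.0, 37.8 and 31.0%. Stat3 was then without a site in 4 of these 6 libraries, and Nfkbiz and Socs1 in 3 each. Day 12- 4 was among them for all 3 genes, which had no call in its whole list. Zfp36 (Day 4), Dusp1 (Day 12- 8) and Nfkbia (Day 12- 12) were each without a site in 1. At the edge of the 10 kb window, the outermost summit kept was a Socs1 one at 9997 bp in Day 12- 12 (score 3.55). The nearest left out were 10071 bp from Zfp36 in Day 12- 12 (score 4.43) and 10076 bp from Socs3 at Day 12 (score 21.3).

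The profile of Zc3h12a over the 7 libraries was compared with those of all protein-coding genes, by the Euclidean distance of log10(1 + highest score). The nearest were Rac2, a GTPase of the phagocyte oxidase, at 0.179, and Cybc1, needed for the phagocyte oxidase cytochrome, at 0.188. Zc3h12a was selected on its Day 0 and Day 12 values, so genes near it must share that pattern. Nothing is read from what these genes encode. Rac2 had no Day 0 call and scored 239, 210.0 and 807 at Days 4, 8 and 12. In the knockdown libraries it scored 63.5, 11.4 and 309 in title order. Hexdc and Narf shared the Cybc1 site, and Trpm5, at 0.188, took its value from a site nearest to Tssc4. Among the members, the nearest to Zc3h12a was Socs3, at 1.47.

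The pathways that these genes restrain were described from lists of genes, by the same window, and each count is to be read against 36.8% of all genes at Day 0 and 77.1% at Day 12. Of 16 NF-kB and Toll-like receptor signal transducers, 13 had a site at Day 0 and 16 at Day 12, and the median highest Day 12 score was 218. Nfkb1, an NF-kB subunit gene, scored 33.9 at Day 0 and 742 at Day 12. Myd88, the adaptor of Toll-like receptors, scored 8.41 and 703, from a site 1.40 kb past its 3′ end. Irak4, the kinase recruited by that adaptor, had no Day 0 call and scored 414 at Day 12.

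Of 16 JAK-STAT and cytokine receptor genes, 11 had a site at Day 0 and 16 at Day 12, with a median Day 12 score of 112. Jak3, Tyk2 and Stat5b led with 509, 414 and 375. The Jak3 site is nearest to Unc13a. Of 10 MAP kinase genes, which encode MAP kinases, the kinases that activate them and the p38 substrate kinase Mapkapk2, 9 had a site at Day 0 and 10 at Day 12, with a median of 64.8. Map2k1, Map2k3 and Mapkapk2 led with 422, 320.0 and 258, and the Map2k1 site is nearest to Snapc5.

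Of 32 other negative regulators, 19 had a site at Day 0 and 32 at Day 12, with a median Day 12 score of 135 against 263 for the members. Zc3h12d, a relative of Zc3h12a, led with 579 at Day 12 and 33.1 at Day 0. Bcl3, a nuclear IkB protein, scored 523 and 26.3. Dusp5, a phosphatase of ERK, had scores of 366, 248, 328 and 434 at Days 0, 4, 8 and 12. In the knockdown libraries it gave 363, 588 and 357 in title order. Like Tnfaip3, Dusp5 thus scored above 200 in all 7 libraries, Day 0 included.

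The list of inflammatory mediator genes looked different at Day 0. Of these 16 genes, most of which encode cytokines, chemokines and inducible enzymes, 1 had a site at Day 0, against 36.8% of all genes. At Day 12 it was 14, against 77.1%, with a median highest score of 51.1. Icam1, an adhesion molecule and the gene with a Day 0 call, scored 11.0 and 517. Il1a and Cxcl2 had no Day 0 call and scored 346 and 251 at Day 12, and the Il1a site is nearest to Ckap2l. Il1rn and Ccl2 had no Day 12 site. The difference between this list and the feedback regulators was not tested.

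The myeloid identity genes, 4 of 10 with a site at Day 0 (against 36.8% of all genes) and 10 at Day 12 (against 77.1%), had a median Day 12 score of 132. Csf2ra, a GM-CSF receptor chain, went from 56.6 at Day 0 to 469 at Day 12 by score. Cd68, found in macrophage lysosomes, had no Day 0 call and scored 428, from a site nearest to Eif4a1.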

How the data were processed

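The authors deposited 1 list of peak summits per library. Per the submitters' processing notes the tool was MACS2 and the build mm10. The deposited score was read as a −log10 q-value, since the lowest score in all lists lies just above −log10 of 0.05. Aligner, MACS2 version, control library, read depth and pooling are not given in the sources used here.

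Summits were read with Python 3.11.15. Libraries were grouped by title. Genes came from RefSeq GRCm38.p6, with starts and strands from its promoter table. Nfkbiz had no entry there. Summits of the 7 lists were merged by single linkage within 100 bp. Window calls and merging were tested on simulated summits. With 1 library per group no test was run. The members and the 6 other gene lists were chosen with earlier results of these data known. All members are named, and in each other list the 3 genes with the highest Day 12 score and those without a Day 12 site, plus the 5 genes nearest to Zc3h12a in profile. Alternatives were other windows, score minimums, shorter lists, nearest-gene assignment, other merging distances and the treatment labels. Sequences were read from the RefSeq promoter table alone, with none outside its windows.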

Additional observations from a re-analysis of the deposited data

How the results depend on the processing

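Of 58 alternative values, 46 lay within 1.5 times the reported one. With the gene body alone, 5 members had a site at Day 4, close to the 48.7% of all genes. In Day 12- 4 it was 4, against 20.7%. Member bodies are shorter, with a median of 5.86 kb against 17.2 kb, so these shares compare unlike lengths. Whether the excess seen with the 10 kb flanks remains cannot be told from them. Within 50 kb, 0 members with a Day 12 site lacked one at Day 0, against 33.3% of all genes. That count was 5 for a score of at least 10, against 47.1%, and 7 for at least 20, against 49.1%. Zc3h12a was selected on this contrast, so nothing is read from these counts. For a score of at least 20, 3 members had a site at Day 0, against 7.80%. The counts were 4 in Day 12- 4, 4 in Day 12- 8 and 6 in Day 12- 12, against 12.7, 15.6 and 30.1%. With lists of 8043 sites the Day 12- 12 count was 6, against 31.0%. Merging within 50 bp left 1 site called in all 7 libraries, and merging within 500 bp left 11 called at Day 12 and in no library titled knockdown. By treatment label, with Day 12- 4 read as 12 days of Dox, that last count was 31 in place of 30. Shares over all sites of the genome are not given for these merging and label settings. Nothing is therefore read from these counts about the members. The causes were not tested, beyond the fewer sites or wider windows that each alternative holds. No paired analysis was possible because each time point had 1 library. Depth is unknown, so its limits cannot be given.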
